A study of Mus musculus with 15 samples.

Results

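The genes described here drive the S, G2 and mitotic phases of the cell cycle: 45 genes were listed, and 44 were measured among the 19937 genes named on the arrays. They are a list of genes with known roles. The rule for membership uses no measured value, although the list was chosen with earlier results of these data known. Each gene was read from the probe set that names that gene alone, or from the probe set with the highest mean over all 15 arrays where there were several. Ccnb1, the cyclin B1 gene, had no such probe set and was not analysed here. By role, 12 genes act in DNA replication, 5 in entry into S phase, 6 are E2F factors or pocket proteins, 20 act in G2 and mitosis, and Wee1 restrains Cdk1.

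The cells were mouse embryonic stem (ES) cells of a single 2i-adapted line (Ctnnb1-BioFLneo;BirA ESC), in which Ctnnb1, the beta-catenin gene, carries a biotin and FLAG tag and the biotin ligase BirA is present, so every group shares these alleles. CHIR99021 blocks the kinase GSK3, PD0325901 blocks MEK, the kinase upstream of ERK, and the cytokine LIF acts through STAT3. The 2iLIF group was kept long term in 3 µM CHIR99021, 1 µM PD0325901 and LIF. The other groups went without LIF for 24 h: both inhibitors stayed in the 2i medium, only CHIR99021 in CHIR, only PD0325901 in PD03, and neither in DMSO. Each group had 3 arrays of total RNA. The labels do not say that these were separate cultures, so p-values measure the spread between these arrays, which may be technical. All values are log2 RMA signals, and a log2 difference of 0.20 is a change of about 1.15-fold.

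In a dividing cell, cyclin E with Cdk2 releases E2F factors from the pocket proteins Rb1, Rbl1 and Rbl2, and E2F factors then transcribe the replication genes. Cdc6 and Cdt1 load the Mcm2 to Mcm7 helicase on origins, and geminin (Gmnn) blocks a repeated loading. Later, a complex of B-Myb and MuvB proteins with Foxm1 transcribes the G2 and mitotic genes, many of them through promoter elements called CHR, and Cdk1 with cyclin B drives mitosis until Cdc20 and the anaphase-promoting complex end it. ES cells are known for a short G1 phase with high cyclin E activity.

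The markers of the labelled cell type were high: 9 of 9 ES cell markers had means of 9.61 or more in every group. The 8 fibroblast and feeder markers had means between 4.80 and 7.77. Among other cell type markers, the highest group means were 10.41 for trophoblast and 9.59 for primitive streak (both in 2iLIF). They were 9.33 for neural markers (in PD03) and 7.80 for primitive endoderm (in 2iLIF). The array medians lay between 6.98 and 7.06. Over all genes, differences between 2 groups had a median standard error of 0.0509, set by the spread between arrays and by their number. Because the authors' quantile normalization gives all arrays nearly 1 distribution, a change in the total RNA of a cell or in all genes at once cannot be seen, and a change in the share of cells in a phase cannot be told apart from a change in RNA per cell. In what follows a gene is called when its limma p-value, adjusted over all 19937 genes of a comparison by the Benjamini-Hochberg method, was under 0.05.

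The 12 listed replication genes had the smallest median span across the 5 media, and the other classes had median spans above that of all genes. The span between the highest and the lowest group mean had a median of 0.0946 over the 12 replication genes, 0.167 over the 20 mitotic genes, 0.276 over the 5 S-phase entry genes, 0.196 over the 6 E2F and pocket genes, 0.189 for Wee1 and 0.154 over all 19937 genes. In all, 12 of the 44 genes were called in CHIR minus DMSO (20.8% of all genes were), 6 in PD03 minus DMSO (16.8%), 13 in 2i minus DMSO (25.5%) and 20 in 2iLIF minus DMSO (34.7%). There were 3 in 2i minus CHIR (0 higher, where 5.70% of all genes were higher, and 3 lower, where 3.76% were lower), 14 in 2i minus PD03 (19.5%) and 7 in 2iLIF minus 2i (12.2%). These shares lie on both sides of the background, and 15 of the 44 were called in no comparison. For the interaction of the inhibitors, (2i minus PD03) minus (CHIR minus DMSO), limma called 0 of 44, with 6 at an unadjusted p under 0.05. Of all genes 2.04% were called for it, 0.933% higher and 1.10% lower. A span of 1 or more was found for 523 of all genes and for 1 of the 44 cell cycle genes, Rb1. For each array the median over a class of the deviation from each gene's own mean was also taken. For the mitotic class it was between -0.0815 and -0.0159 in the 9 arrays with CHIR99021 (2iLIF, 2i and CHIR) and between 0.0211 and 0.0924 in the 6 arrays without it (PD03 and DMSO). The array sets do not overlap. For the replication class the same measure was between -0.0192 and 0.0168 with CHIR99021 and between -0.0221 and 0.0466 without it, and these sets do overlap. Within the latter set, the replication medians were 0.0221 to 0.0466 in DMSO, above all arrays of the other groups, and -0.0221 to -0.0012 in PD03. The mitotic median exceeded the replication median by 0.0767 to 0.0955 in the PD03 arrays, and the same difference was between -0.082 and -0.0562 in the 2iLIF arrays. These medians are descriptions of the chosen genes and carry no test.

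**Figure D1:**
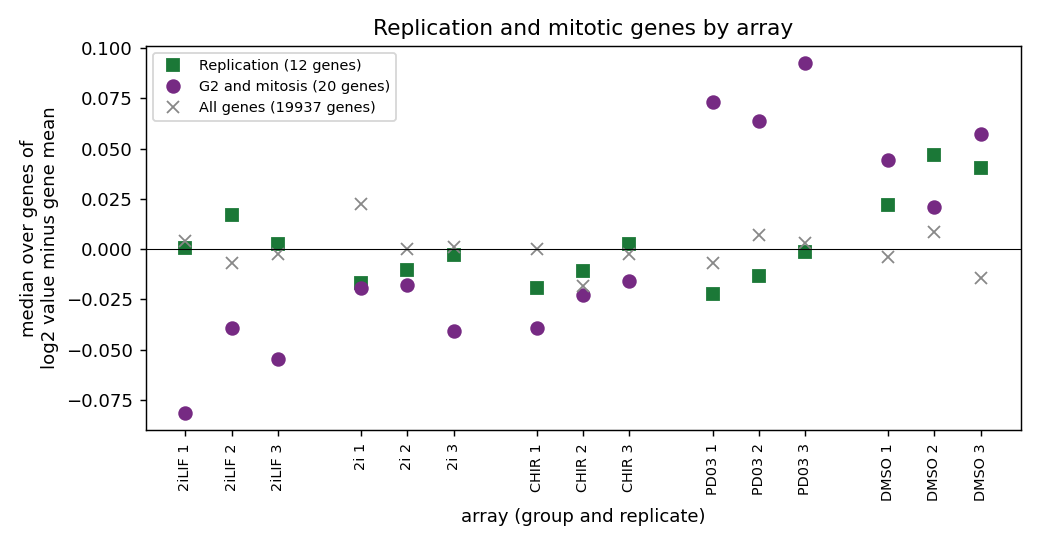
Median deviation from the gene mean (log2 scale, vertical axis) for each of the 15 arrays (horizontal axis), over the 12 replication genes (squares), the 20 mitotic genes (circles) and all 19937 genes (crosses). The mitotic medians of the 6 PD03 and DMSO arrays, 0.0211 to 0.0924, all lie above those of the 9 arrays with CHIR99021, while the replication medians stay between -0.0221 and 0.0466. The replication medians are highest in the DMSO arrays.

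The classes also differ in their promoters, which are shown because many, though not all, members of a class share an element. RefSeq promoter windows (build GRCm38.p6, 250 bases before to 50 after the gene start) were found for 34 of the 44 measured genes, and both strands were searched for the E2F-type motifs TTTCCCGC and TTTGGCGC, the CHR motif TTTGAA and the NF-Y box CCAAT. No 2 of these motifs overlapped in the windows printed here. An E2F-type motif was present in 6 of 10 replication genes and in 0 of 16 mitotic genes, against 2.6% of the 15613 array genes with a window. TTTGAA was present in 11 of 16 mitotic genes and 1 of 10 replication genes, against 17.3% of array genes. CCAAT was present in 14 of 16 mitotic and 8 of 10 replication genes, against 41.7%. All 11 mitotic windows with TTTGAA also held CCAAT, a pair that 6.9% of array genes held. Printed below, 5′ to 3′, are the 3 windows of each class whose genes had the widest spans among windows with TTTGAA or an E2F-type motif, with all matches of the 4 motifs in capitals. The replication windows are those of Mcm2 (chr6:88898731-88899030, minus strand), Cdt1 (chr8:122567765-122568064, plus strand) and Mcm6 (chr1:128359656-128359955, minus strand). The mitotic windows are those of Plk1 (chr7:122159185-122159484, plus strand), Cdc20 (chr4:118437294-118437593, minus strand) and Mki67 (chr7:135716330-135716629, minus strand).
Mcm2: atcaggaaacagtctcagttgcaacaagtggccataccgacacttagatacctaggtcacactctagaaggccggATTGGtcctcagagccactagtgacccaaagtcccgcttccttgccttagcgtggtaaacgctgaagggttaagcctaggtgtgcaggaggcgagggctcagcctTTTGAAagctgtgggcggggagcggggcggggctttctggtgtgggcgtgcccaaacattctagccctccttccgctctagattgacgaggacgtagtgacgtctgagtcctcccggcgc
Cdt1: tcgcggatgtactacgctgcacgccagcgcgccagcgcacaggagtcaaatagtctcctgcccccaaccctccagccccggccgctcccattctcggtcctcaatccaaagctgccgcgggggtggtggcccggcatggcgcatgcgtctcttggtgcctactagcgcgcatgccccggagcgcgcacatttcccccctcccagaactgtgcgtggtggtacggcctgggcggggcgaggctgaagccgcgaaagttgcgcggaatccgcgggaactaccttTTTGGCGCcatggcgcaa
Mcm6: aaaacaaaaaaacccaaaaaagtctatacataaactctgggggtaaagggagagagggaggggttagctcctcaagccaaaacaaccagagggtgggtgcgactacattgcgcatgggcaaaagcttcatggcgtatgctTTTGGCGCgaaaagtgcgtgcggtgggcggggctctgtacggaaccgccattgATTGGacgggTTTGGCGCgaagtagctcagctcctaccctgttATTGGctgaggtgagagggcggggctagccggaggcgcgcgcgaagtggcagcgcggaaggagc
Plk1: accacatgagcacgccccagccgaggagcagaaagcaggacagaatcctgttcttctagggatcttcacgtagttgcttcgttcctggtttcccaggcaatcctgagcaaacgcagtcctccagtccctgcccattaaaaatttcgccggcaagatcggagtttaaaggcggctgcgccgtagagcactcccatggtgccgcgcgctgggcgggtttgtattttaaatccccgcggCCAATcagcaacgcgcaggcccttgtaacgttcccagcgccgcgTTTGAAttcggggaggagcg
Cdc20: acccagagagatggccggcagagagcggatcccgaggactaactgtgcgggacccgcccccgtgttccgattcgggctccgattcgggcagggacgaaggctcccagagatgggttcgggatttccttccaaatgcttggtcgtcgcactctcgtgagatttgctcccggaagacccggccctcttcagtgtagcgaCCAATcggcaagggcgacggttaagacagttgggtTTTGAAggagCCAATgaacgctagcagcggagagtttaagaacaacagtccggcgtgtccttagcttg
Mki67: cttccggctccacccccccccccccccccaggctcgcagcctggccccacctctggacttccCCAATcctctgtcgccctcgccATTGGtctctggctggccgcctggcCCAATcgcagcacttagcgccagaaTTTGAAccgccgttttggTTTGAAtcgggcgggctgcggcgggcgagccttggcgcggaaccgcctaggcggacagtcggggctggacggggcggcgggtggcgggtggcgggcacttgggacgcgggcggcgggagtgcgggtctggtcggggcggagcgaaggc
In Mcm6 the motif TTTGGCGC stood 2 times, beginning at bases -110 and -47 from the start, and in Cdt1 it began at base 33 (the start is base 1, and there is no base 0). Mcm2 is the 1 replication gene with TTTGAA, beginning at base -70. In Cdc20 TTTGAA began at base -18, between CCAAT boxes that began at bases -53 and -8. In Plk1 it began at base 31, and Mki67 held it at bases -116 and -98. A match says only that these letters stand in the window.

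Few of the 12 listed replication genes were called in any comparison. In CHIR minus DMSO 1 of 12 was called (lower, where 10.8% of all genes were called lower), in 2iLIF minus DMSO 2 were called (lower, where 18% of all genes were), and in 2iLIF minus 2i 1 was called (higher, where 4.56% of all genes were). Limma called 0 of 12 in PD03 minus DMSO (16.8% of all genes) and in 2i minus DMSO (25.5%), with 2 at an unadjusted p under 0.05 in each. It also called 0 of 12 in 2i minus CHIR (9.46%) and in 2i minus PD03 (19.5%), with 1 in each at that unadjusted threshold. Leaving out Pcna, the 95% intervals of the other 11 genes bounded the difference to between -0.141 and 0.133 in 2i minus PD03 and to between -0.208 and 0.153 in CHIR minus DMSO. The bounds were wider in 2iLIF minus DMSO, -0.247 and 0.229, and were -0.163 and 0.264 in 2iLIF minus 2i. Pcna itself was less well bounded, at -0.459 to 0.020 in 2i minus PD03 and -0.418 to 0.061 in CHIR minus DMSO.

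Among the helicase genes, Mcm2 had values of 12.30, 12.28 and 12.22 in 2iLIF, 12.35, 12.36 and 12.37 in 2i, 12.38, 12.34 and 12.37 in CHIR, 12.40, 12.43 and 12.36 in PD03 and 12.45, 12.45 and 12.43 in DMSO. The 2iLIF arrays were below all others, and the DMSO arrays were above all but some of the PD03 arrays. Mcm2 fell by 0.18 ± 0.03 (SE) in 2iLIF minus DMSO (adjusted p = 0.000421, 1.13-fold) and held this call in all 23 alternative analyses. Mcm6 read 11.56, 11.57 and 11.57 in 2iLIF, 11.59, 11.60 and 11.59 in 2i, 11.55, 11.63 and 11.61 in CHIR, 11.66, 11.66 and 11.69 in PD03 and 11.67, 11.66 and 11.66 in DMSO. The PD03 and DMSO arrays of Mcm6 all stood above the other arrays, and the call of 2iLIF minus DMSO (-0.10 ± 0.03, adjusted p = 0.0221) was lost without 2iLIF replicate 1, DMSO replicate 1 or DMSO replicate 2 (adjusted p up to 0.277 over the alternatives). Mcm4 read 11.48, 11.50 and 11.50 in 2iLIF, 11.48, 11.47 and 11.48 in 2i, 11.54, 11.61 and 11.52 in CHIR, 11.44, 11.44 and 11.48 in PD03 and 11.54, 11.56 and 11.52 in DMSO and was not called in any comparison. Mcm3, Mcm5 and Mcm7, the other helicase subunits, had spans of group means of 0.0797, 0.0668 and 0.0658 and no call.

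Of the loading factors, Cdt1 read 11.34, 11.32 and 11.25 in 2iLIF, 11.34, 11.31 and 11.30 in 2i, 11.29, 11.19 and 11.31 in CHIR, 11.24, 11.33 and 11.24 in PD03 and 11.39, 11.39 and 11.37 in DMSO. Its 3 DMSO arrays were tight and above all others. The fall in CHIR minus DMSO (-0.12 ± 0.04, adjusted p = 0.0438) was near the threshold and was lost in 16 of 23 alternatives, 11 of them the removal of an array, with an adjusted p of up to 0.214. Cdc6, which recruits Cdt1, spanned 0.080 and was not called. Geminin, the inhibitor of Cdt1, read 8.31, 8.39 and 8.47 in 2iLIF, 8.25, 8.25 and 8.18 in 2i, 8.24, 8.34 and 8.37 in CHIR, 8.24, 8.20 and 8.29 in PD03 and 8.23, 8.24 and 8.33 in DMSO. Gmnn rose in 2iLIF minus 2i (0.16 ± 0.05, adjusted p = 0.0377), and the call was lost without 2iLIF replicate 2 or 3, any of the 2i arrays, or PD03 replicate 1 (adjusted p up to 0.175).

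Pcna, the sliding clamp of the DNA polymerases, is on 2 probe sets that list the same transcripts, and RefSeq also lists the pseudogenes Pcna-ps1 and Pcna-ps2. The set with the higher mean read 13.02, 13.17 and 13.06 in 2iLIF, 12.52, 12.92 and 13.18 in 2i, 12.97, 13.00 and 12.82 in CHIR, 13.13, 13.16 and 12.99 in PD03 and 13.14, 13.12 and 13.07 in DMSO. It was not called in any comparison, and the widest spread was inside the 2i group. The other set stayed between 12.91 and 13.00 on all 15 arrays and was not called either. The subunits of ribonucleotide reductase, which makes deoxynucleotides, were equally flat: Rrm1 spanned 0.0877 and Rrm2 0.0444 between group means, with no call.

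Of the 5 genes of entry into S phase, 2 fell in PD03 minus DMSO (8.15% of all genes were called lower) and 3 fell in 2i minus CHIR (3.76% of all genes), the comparisons that add PD0325901, with 0 higher in either. The gene of cyclin E1, the activator of Cdk2, is Ccne1. It read 11.71, 11.72 and 11.70 in 2iLIF, 11.71, 11.69 and 11.78 in 2i and 11.76, 11.74 and 11.79 in PD03. It read 11.91, 11.86 and 11.90 in CHIR and 11.90, 12.02 and 12.04 in DMSO, all above the arrays with PD0325901. Ccne1 fell by 0.22 ± 0.04 in PD03 minus DMSO (adjusted p = 0.00107), by 0.26 ± 0.04 in 2i minus DMSO (adjusted p = 1.44e-04) and by 0.16 ± 0.04 in 2i minus CHIR (adjusted p = 0.0178). The last call was lost without 2i replicate 1 or 2 or CHIR replicate 1 or 3 (adjusted p up to 0.0776). In 2iLIF minus DMSO Ccne1 fell by 0.28 ± 0.04 (adjusted p = 4.58e-05), a call kept in all 23 alternatives.

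Cdc25a, the phosphatase that activates Cdk2, read 10.88, 10.94 and 10.85 in 2iLIF, 11.05, 11.07 and 11.04 in 2i, 11.20, 11.20 and 11.15 in CHIR, 11.02, 10.99 and 10.99 in PD03 and 11.17, 11.13 and 11.20 in DMSO. The CHIR and DMSO arrays were the highest and the 2iLIF arrays the lowest, with no overlap. Cdc25a fell by 0.17 ± 0.03 in PD03 minus DMSO (adjusted p = 0.00244), and its difference of 0.01 ± 0.03 in CHIR minus DMSO was not called (95% interval -0.060 to 0.087). It also fell by 0.16 ± 0.03 in 2iLIF minus 2i (adjusted p = 0.00469), which was lost with arrays centred on their medians (adjusted p up to 0.0785). Its fall of 0.28 ± 0.03 in 2iLIF minus DMSO (adjusted p = 8.53e-06) was kept in all 23 alternatives. The falls in 2i minus DMSO (-0.11) and 2i minus CHIR (-0.13) were each lost in 6 of 23 alternatives, among them the removal of 2i replicate 1 or 3, DMSO replicate 1 or 3 for the former (adjusted p up to 0.0873) and of any 2i array, CHIR replicate 1 or 2 for the latter (adjusted p up to 0.101).

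Ccne2, the gene of the second E cyclin, took another course. It read 9.52, 9.60 and 9.65 in 2iLIF, 9.49, 9.62 and 9.56 in 2i, 9.76, 9.79 and 9.82 in CHIR, 9.55, 9.31 and 9.52 in PD03 and 9.37, 9.41 and 9.59 in DMSO. The 3 CHIR arrays were above all 12 others. Ccne2 rose by 0.33 ± 0.07 in CHIR minus DMSO (adjusted p = 0.00165, 1.26-fold, kept in all 23 alternatives) and fell by 0.24 ± 0.07 in 2i minus CHIR (adjusted p = 0.0344). That second call was lost without 2i replicate 1 or 3 or any CHIR array (adjusted p up to 0.137), and the interaction of the inhibitors was not called for Ccne2. Cdk2 itself read 11.61, 11.66 and 11.57 in 2iLIF, 11.45, 11.50 and 11.52 in 2i, 11.40, 11.37 and 11.43 in CHIR, 11.49, 11.47 and 11.48 in PD03 and 11.53, 11.45 and 11.47 in DMSO. Cdk2 rose in 2iLIF minus DMSO (0.13 ± 0.04, adjusted p = 0.00987), which was lost with only the groups compared and without 2iLIF replicate 2 (adjusted p up to 0.0595). Its rise in 2iLIF minus 2i (0.13, adjusted p = 0.0315) was lost without 2iLIF replicate 1 or 2 or 2i replicate 1 or 2 (adjusted p up to 0.147). Ccna2, the cyclin A2 gene used in S phase and G2, spanned 0.0865 and was not called in any comparison.

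Of the E2F factors and pocket proteins, Rb1 stood out. Its protein, the retinoblastoma protein, binds activating E2F factors and keeps their targets silent in G1. Rb1 read 8.19, 8.24 and 8.28 in 2iLIF, 8.73, 8.75 and 8.43 in 2i and 8.70, 8.77 and 8.62 in CHIR. It read 9.23, 9.18 and 9.30 in PD03 and 9.15, 9.06 and 9.10 in DMSO, above every array with CHIR99021. The group means were 8.23 ± 0.05 in 2iLIF, 8.63 ± 0.18 in 2i, 8.70 ± 0.07 in CHIR, 9.24 ± 0.06 in PD03 and 9.11 ± 0.05 in DMSO (SD, n = 3 each). The 2i and CHIR arrays overlap, and 2i replicate 3 is the lowest of both groups.

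Rb1 fell by 0.41 ± 0.07 (SE) in CHIR minus DMSO (adjusted p = 4.8e-04, 1.33-fold) and by 0.60 ± 0.07 in 2i minus PD03 (adjusted p = 1.36e-05, 1.52-fold), which are the comparisons that add CHIR99021 and share no arrays. It fell by a further 0.40 ± 0.07 where LIF was kept (2iLIF minus 2i, adjusted p = 8.72e-04), and 2iLIF stood 1.83-fold below DMSO (-0.87 ± 0.07, adjusted p = 4.86e-08). The differences that add PD0325901 were 0.13 in PD03 minus DMSO and -0.06 in 2i minus CHIR, neither of them called. All 5 calls were kept in the 23 alternatives. In 2iLIF minus 2i the fall ranged from 0.34 to 0.50 over these.

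Among the relatives of Rb1, Rbl1 (p107) rose in CHIR minus DMSO (0.18, adjusted p = 0.00908), in 2i minus DMSO (0.16, adjusted p = 0.0151) and in 2iLIF minus DMSO (0.14, adjusted p = 0.0214). The latter pair of calls were lost without DMSO replicate 2, and without 2i replicate 2 and 2iLIF replicate 3 respectively (adjusted p up to 0.0712 and 0.105). Rbl2 (p130) read 8.22, 8.36 and 8.44 in 2iLIF, 8.32, 8.38 and 8.20 in 2i, 8.23, 8.37 and 8.25 in CHIR, 8.33, 8.29 and 8.32 in PD03 and 8.45, 8.17 and 8.35 in DMSO, with all groups overlapping and no call. The activating factor E2f1 read 10.41, 10.41 and 10.34 in 2iLIF, 10.60, 10.52 and 10.54 in 2i, 10.53, 10.42 and 10.42 in CHIR, 10.60, 10.66 and 10.54 in PD03 and 10.43, 10.54 and 10.53 in DMSO. It fell in 2iLIF minus 2i (-0.17 ± 0.05, adjusted p = 0.0251), which was lost without 2iLIF replicate 2 or 3 or 2i replicate 1 or 3 (adjusted p up to 0.112).

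E2f3, another activator, read 10.08, 10.15 and 10.03 in 2iLIF, 10.04, 10.01 and 10.17 in 2i, 10.13, 10.20 and 10.15 in CHIR, 9.96, 9.79 and 9.96 in PD03 and 9.76, 9.84 and 10.01 in DMSO. Arrays with CHIR99021 were at or above 10.01, the level of the highest DMSO array. E2f3 rose by 0.29 ± 0.06 in CHIR minus DMSO (adjusted p = 0.00305), and in 2i and 2iLIF minus DMSO by 0.21 and 0.22 (adjusted p = 0.0243 and 0.0118). The second probe set of E2f3 gave 0.17 in CHIR minus DMSO and 0.07 and 0.14 in the others, none called with all probe sets tested (adjusted p = 0.308, 0.747 and 0.371). The 2i call was also lost without 2i replicate 3, DMSO replicate 1 or DMSO replicate 2, and the 2iLIF call without 2iLIF replicate 2 or DMSO replicate 1. E2f2 had means between 7.93 and 8.10, and its fall in 2i minus DMSO (-0.17, adjusted p = 0.0445) was lost in 14 of 23 alternatives, 11 of them the removal of an array (adjusted p up to 0.22).

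**Figure D2:**
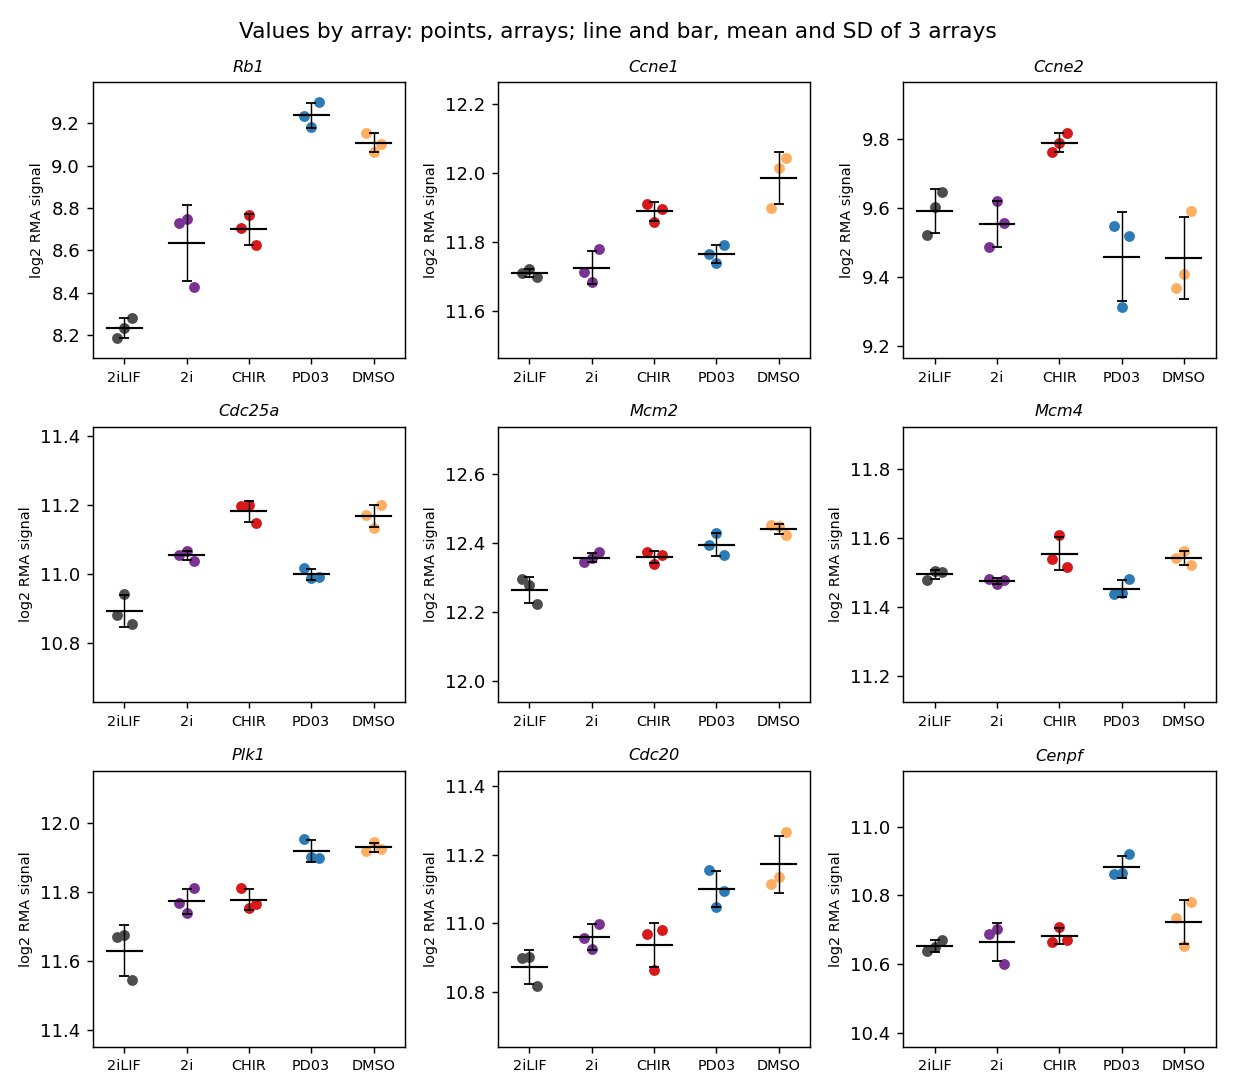
Log2 RMA signal (vertical axes, 0.8 units tall except 1.3 for Rb1) of 9 genes in the 5 groups, with points for arrays, lines for means and bars for the SD of 3 arrays. Rb1 steps down from 9.24 in PD03 and 9.11 in DMSO to 8.23 in 2iLIF, Ccne2 is highest in CHIR, Ccne1 and Cdc25a are highest in CHIR and DMSO, and Mcm4 stays within 11.44 to 11.61.

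Some of the 20 G2 and mitotic genes were lower in cells kept in CHIR99021. In 2i minus PD03, 12 fell and 0 rose, against 9.44% of all genes lower, with a class median of -0.117 against 0.00895 over all genes. In CHIR minus DMSO, 6 of 20 fell and 0 rose, against 10.8% of all genes lower, with a median of -0.0637 against -0.00592. The median of the replication genes was -0.00263 in 2i minus PD03. In CHIR minus DMSO it was -0.0477, near the mitotic median, so the classes differed less there. Of the 20, 16 were below 0 in both comparisons and 1 was above 0 in both, against 33.2% and 34.7% of all genes. The 5 genes called lower in both, against 6.23% of all genes, were Ccnb2, Cdc25b, Aurkb, Plk1 and Bub1b, which is 83.3% of the shorter list and 41.7% of the longer. The count of 12 was 7 without 2i replicate 2, PD03 replicate 1 or PD03 replicate 2, and it was 5 with arrays centred on their medians, which took the count of 6 to 2. None of these calls changed direction under an alternative, while the uncalled Top2a was at -0.07 in CHIR minus DMSO and at 0.06 on its other probe set.

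Plk1, the Polo-like kinase that starts spindle assembly, read 11.67, 11.67 and 11.55 in 2iLIF, 11.77, 11.74 and 11.81 in 2i, 11.81, 11.75 and 11.77 in CHIR, 11.95, 11.90 and 11.90 in PD03 and 11.92, 11.94 and 11.92 in DMSO. The PD03 and DMSO arrays were the highest and the 2iLIF arrays the lowest, and these sets do not overlap. Plk1 fell by 0.15 ± 0.04 in CHIR minus DMSO (adjusted p = 0.0114), by 0.15 ± 0.04 in 2i minus PD03 (adjusted p = 0.0161), and by a further 0.14 ± 0.04 in 2iLIF minus 2i (adjusted p = 0.0255). The first call was lost with arrays centred on their medians (adjusted p up to 0.0765). The second was lost there and without 2i replicate 2 or PD03 replicate 1 (adjusted p up to 0.0751), and the third also without 2iLIF replicate 3 or 2i replicate 1 or 3 (adjusted p up to 0.143).

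Aurkb, the kinase of the chromosomal passenger complex, read 11.63, 11.59 and 11.56 in 2iLIF, 11.72, 11.68 and 11.69 in 2i, 11.70, 11.65 and 11.70 in CHIR, 11.80, 11.86 and 11.84 in PD03 and 11.91, 11.84 and 11.84 in DMSO. All arrays with CHIR99021 were below all arrays without it. Aurkb fell by 0.18 ± 0.04 in CHIR minus DMSO (adjusted p = 0.00149, kept in all 23 alternatives) and by 0.14 ± 0.04 in 2i minus PD03 (adjusted p = 0.0117, and 0.0505 without PD03 replicate 2). Cdc20, the activator of the anaphase-promoting complex, read 10.90, 10.90 and 10.82 in 2iLIF, 10.96, 10.92 and 11.00 in 2i, 10.97, 10.86 and 10.98 in CHIR, 11.16, 11.05 and 11.10 in PD03 and 11.11, 11.13 and 11.27 in DMSO. It too was lower on every array with CHIR99021 than on any without. Cdc20 fell by 0.23 ± 0.05 in CHIR minus DMSO (adjusted p = 0.00236), and its difference of -0.14 ± 0.05 in 2i minus PD03 was not called (adjusted p = 0.0562).

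Cdc25b, a phosphatase that activates Cdk1 before mitosis, read 8.64, 8.68 and 8.58 in 2iLIF, 8.59, 8.71 and 8.76 in 2i, 8.59, 8.60 and 8.63 in CHIR, 8.89, 8.95 and 8.90 in PD03 and 8.74, 8.76 and 8.77 in DMSO. The 3 PD03 arrays were above all others. Cdc25b fell by 0.23 ± 0.04 in 2i minus PD03 (adjusted p = 0.0011, 1.17-fold, kept in all 23 alternatives), and by 0.15 ± 0.04 in CHIR minus DMSO (adjusted p = 0.0175), the latter lost without CHIR replicate 1 or 2 or DMSO replicate 3 (adjusted p up to 0.132). Bub1b, a spindle checkpoint kinase-like protein, fell by 0.13 in CHIR minus DMSO (adjusted p = 0.00699) and by 0.10 in 2i minus PD03 (adjusted p = 0.0393), the latter call lost without any 1 of the 2i or PD03 arrays (adjusted p up to 0.209). Ccnb2, the cyclin B2 gene, fell by 0.12 and 0.11 (adjusted p = 0.0222 and 0.0383). Its calls were lost without CHIR replicate 2 or 3 or DMSO replicate 1, and without any 1 of the 2i or PD03 arrays (adjusted p up to 0.199 and 0.177). RefSeq also lists the pseudogene Ccnb2-ps.

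Cenpf, Mki67, Kif11, Top2a and Tpx2 were called lower in 2i minus PD03 and not in CHIR minus DMSO, and the interaction of the inhibitors, which tests that contrast, was called for none of the 20 mitotic genes nor for any of the 12 replication genes (limma, 0 calls, against 2.04% of all genes, and 4 and 1 genes at an unadjusted p under 0.05). Cenpf, a kinetochore protein, read 10.64, 10.65 and 10.67 in 2iLIF, 10.69, 10.70 and 10.60 in 2i, 10.67, 10.71 and 10.67 in CHIR, 10.86, 10.87 and 10.92 in PD03 and 10.74, 10.65 and 10.78 in DMSO. The PD03 arrays were the highest, with no overlap. Cenpf fell by 0.22 ± 0.04 in 2i minus PD03 (adjusted p = 0.001), and its difference in CHIR minus DMSO was -0.04 ± 0.04 (95% interval -0.127 to 0.044). Mki67, which coats mitotic chromosomes and is the Ki-67 proliferation antigen, read 11.49, 11.48 and 11.43 in 2iLIF, 11.55, 11.54 and 11.53 in 2i, 11.55, 11.60 and 11.55 in CHIR, 11.74, 11.66 and 11.72 in PD03 and 11.55, 11.54 and 11.62 in DMSO. PD03 was again above all other arrays. Mki67 fell by 0.16 ± 0.04 in 2i minus PD03 (adjusted p = 0.00433), and Kif11, the motor that separates spindle poles, fell by 0.17 ± 0.04 (adjusted p = 0.00274). Both calls were kept in all 23 alternatives.

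Top2a, the topoisomerase that untangles chromosomes, fell by 0.15 ± 0.04 in 2i minus PD03 (adjusted p = 0.00838). Its other probe set, between 6.13 and 6.73 on the arrays, gave -0.17 ± 0.12 (adjusted p = 0.491 with all probe sets tested), and the call was also lost with the mean of the probe sets. Tpx2, which activates Aurka on the spindle, fell by 0.14 (adjusted p = 0.00682). Bub1, a checkpoint kinase, and Birc5 completed the 12, at -0.11 and -0.12 (adjusted p = 0.0365 and 0.0472), and were lost in 10 and 14 of 23 alternatives (adjusted p up to 0.159 and 0.208). For both these included the removal of 2i replicate 2 or 3 or any PD03 array, and for Birc5 also that of 2iLIF replicate 2, 2i replicate 1, CHIR replicate 2 or DMSO replicate 1 or 2. Aurka, Cdc25c, Cenpe, Kif20a and Cdk1 were not called in any of the 8 comparisons, and their group means spanned 0.0525, 0.0786, 0.0761, 0.0584 and 0.0900.

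A few mitotic genes were higher in cells kept in PD0325901 alone. In PD03 minus DMSO, 4 of 20 rose and 0 fell, against 8.67% of all genes higher, and in 2i minus CHIR limma called 0 of 20, against 9.46% in either direction and with 2 at an unadjusted p under 0.05. PD03 minus DMSO and 2i minus PD03 share the PD03 arrays. The 4 genes that rose were also among those called lower in 2i minus PD03, so these are not separate results. The 4 genes were Birc5 (0.20 ± 0.04, adjusted p = 0.00197), Cenpf (0.16 ± 0.04, adjusted p = 0.0108), Cdc25b (0.16 ± 0.04, adjusted p = 0.0191) and Mki67 (0.13 ± 0.04, adjusted p = 0.0177). Birc5 was kept in all 23 alternatives. Cdc25b was lost without PD03 replicate 2 or DMSO replicate 1, Mki67 without PD03 replicate 1 or 3 or DMSO replicate 1 or 2, and Cenpf without PD03 replicate 3 or DMSO replicate 2 (adjusted p up to 0.0869, 0.105 and 0.0575). The count of 4 was 2 without PD03 replicate 3, DMSO replicate 1 or DMSO replicate 2, and 1, Birc5, with arrays centred on their medians. Birc5, the gene of survivin, a passenger complex protein, read 10.60, 10.67 and 10.72 in 2iLIF, 10.49, 10.57 and 10.54 in 2i, 10.41, 10.44 and 10.49 in CHIR, 10.62, 10.65 and 10.68 in PD03 and 10.44, 10.42 and 10.49 in DMSO. Its 2iLIF and PD03 arrays were above all others, while the 2i arrays overlap those of CHIR and DMSO.

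Compared with full withdrawal, 2iLIF cells had 10 of 20 mitotic genes lower and 1, Birc5, higher (0.21 ± 0.04, adjusted p = 4.92e-04), against 18% of all genes lower and 16.7% higher. Plk1 (-0.30), Cdc20 (-0.30) and Aurkb (-0.27) led, with adjusted p-values of 1.5e-05, 1.19e-04 and 1.42e-05. The count of 11 was 7 with the arrays of those groups alone and 5 with arrays centred on their medians. In 2i minus DMSO 6 of 20 fell and 0 rose, against 11.9% of all genes lower, led by Cdc20 (-0.21 ± 0.05, adjusted p = 0.00377), Aurkb (-0.17 ± 0.04, adjusted p = 0.00203) and Plk1 (-0.16 ± 0.04, adjusted p = 0.0074). These comparisons and CHIR minus DMSO share the DMSO arrays. The part that keeping LIF added, 2iLIF minus 2i, had 1 mitotic gene lower (Plk1) and 1 higher (Birc5, 0.13 ± 0.04, adjusted p = 0.0452). Both were lost without 2iLIF replicate 3, 2i replicate 1 or 2i replicate 3, and Birc5 in 14 of 23 alternatives in all (adjusted p up to 0.188). Of all genes, 7.66% were lower and 4.56% higher in this comparison. The log2 summed signals of primitive streak and trophoblast markers were highest in 2iLIF, at 10.27 to 10.30 and 11.08 to 11.10. In DMSO these sums were 9.33 to 9.51 and 10.10 to 10.26. Most of these markers were not called: in 2iLIF minus DMSO 2 of 5 and 2 of 7 were called higher and 0 lower. Differences above 0 were found for 4 of 5 and 4 of 7. The medians were 0.154 and 0.0217, and the largest changes 1.80 and 1.96. The part of these markers in the 2iLIF results was not tested.

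Neural markers moved the same way as the mitotic genes in some comparisons. Called lower were 4 of 6 in 2i minus PD03 (9.44% of all genes) and 3 of 6 in CHIR minus DMSO (10.8%). In PD03 minus DMSO 3 of 6 were higher (8.67% of all genes). In 2iLIF minus DMSO and in 2i minus DMSO the measures were mixed. In each, 2 of 6 neural markers were called lower and 1 was called higher. Their medians were 0.11 and 0.01 there, where the mitotic medians were -0.10 and -0.08. In 2i minus CHIR 2 of 6 neural markers were called higher and 0 lower, where 0 of 20 mitotic genes were called. The log2 of their summed signal was 10.35 to 10.42 in 2iLIF, 10.28 to 10.43 in 2i, 10.08 to 10.12 in CHIR, 10.73 to 10.81 in PD03 and 10.34 to 10.39 in DMSO. None of the 6 had a group mean below 6. Their part in the mitotic result was not tested. The fibroblast and feeder sum was level, between 9.55 and 9.79 on all arrays.

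Wee1, the kinase that holds Cdk1 inactive until the cell is ready for mitosis, was also lower in CHIR99021. It read 10.86, 10.85 and 10.88 in 2iLIF, 10.89, 10.85 and 10.82 in 2i, 10.91, 10.94 and 10.89 in CHIR, 11.03, 10.92 and 10.98 in PD03 and 11.02, 11.07 and 11.04 in DMSO. The DMSO arrays stood above every array of 2iLIF, 2i and CHIR. PD03 replicate 2 lay below CHIR replicate 2, so arrays with and without CHIR99021 overlap for Wee1. The difference in PD03 minus DMSO, -0.07 ± 0.04, was not called. Wee1 fell by 0.13 ± 0.04 in CHIR minus DMSO (adjusted p = 0.0178), by 0.19 ± 0.04 in 2i minus DMSO (adjusted p = 8e-04) and by 0.12 ± 0.04 in 2i minus PD03 (adjusted p = 0.0239). The first call was lost without CHIR replicate 3 or DMSO replicate 2 and the third without 2i replicate 2 or 3 or PD03 replicate 1 or 3 (adjusted p up to 0.147 and 0.121).

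**Figure D3:**
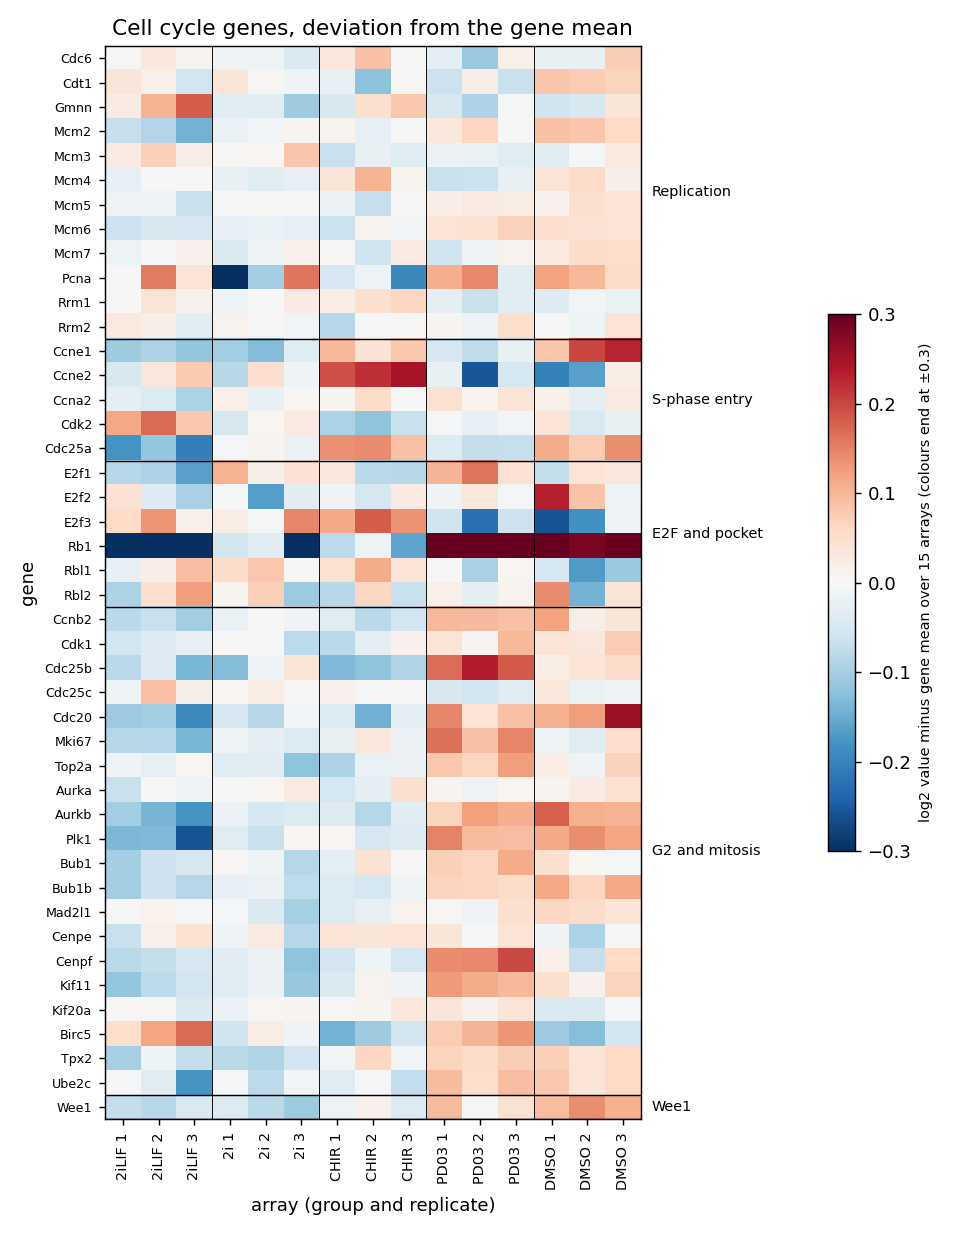
Deviation of each of the 44 genes (rows, by role) from its own mean over the 15 arrays (columns, by group), on the log2 scale with colours ending at ±0.3. Rb1 is the row with the strongest colours, mitotic rows are mostly red in PD03 and DMSO and blue in 2iLIF, and most replication rows are pale throughout.

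Further genes of the same processes, taken from lists of replication, mitotic, E2F and checkpoint genes, were read in the same fit. Of 56 other mitotic genes, 15 fell and 0 rose in 2i minus PD03 (9.44% and 10.1% of all genes), and 12 fell and 4 rose in CHIR minus DMSO (10.8% and 10.0%). The 15 were led by the microtubule-binding genes Nusap1 (-0.31 ± 0.04, adjusted p = 7.14e-05) and Prc1 (-0.27 ± 0.04, adjusted p = 4.62e-05), the kinesin Kif14 (-0.29 ± 0.05, adjusted p = 0.00119) and Sgo2a, a protector of centromeric cohesion (-0.22 ± 0.04, adjusted p = 4.12e-04). In PD03 minus DMSO 7 rose and 2 fell (8.67% and 8.15% of all genes), led by the kinetochore gene Spc24 (0.36 ± 0.05, adjusted p = 3.95e-05). The median of this list was -0.0789 in 2i minus PD03, -0.0505 in CHIR minus DMSO and 0.0185 in PD03 minus DMSO. TTTGAA was present in 33 of its 50 promoter windows, against 17.3% of array genes.

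Of 44 other replication genes, 4 fell and 1 rose in 2i minus PD03 (9.44% and 10.1% of all genes), and 5 fell and 3 rose in CHIR minus DMSO (10.8% and 10.0%), with medians of 0.0238 and -0.00615. The lowest was Pold1, the catalytic subunit of DNA polymerase delta, at -0.28 ± 0.04 in CHIR minus DMSO (adjusted p = 2.05e-04) and -0.19 ± 0.04 in 2i minus PD03 (adjusted p = 0.00423). The fork protection gene Timeless was at -0.22 ± 0.04 and -0.18 ± 0.04 (adjusted p = 0.00182 and 0.00853). In 2iLIF minus DMSO 9 of the 44 fell and 7 rose, near the 18% and 16.7% of all genes, with the helicase factor Gins2 at -0.30 ± 0.04 (adjusted p = 1.73e-05). The span of group means had a median of 0.144 over this list, against 0.154 over all genes and 0.0946 over the 12 listed replication genes. The small spans of those 12 thus did not extend to this list. An E2F-type motif was present in 8 of 37 windows of this list.

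Among 15 other E2F and B-Myb complex genes, 4 fell and 1 rose in 2i minus PD03 (9.44% and 10.1% of all genes). Those that fell were Tfdp2, an E2F partner, at -0.30 ± 0.05 (adjusted p = 2.77e-04), Foxm1, the mitotic transcription factor, at -0.23 ± 0.04 (adjusted p = 4.27e-04), and the repressors E2f7 and E2f8 at -0.22 and -0.20 (adjusted p = 0.00238 and 0.0152). Foxm1 also fell by 0.12 ± 0.04 in CHIR minus DMSO (adjusted p = 0.0314) and rose by 0.17 ± 0.04 in PD03 minus DMSO (adjusted p = 0.00642). E2f8 was lower by 0.38 ± 0.05 in 2i minus CHIR (adjusted p = 2.41e-04). Of 13 checkpoint genes, 4 rose and 1 fell in 2i minus PD03 (10.1% and 9.44% of all genes). Chek2, a kinase of the DNA damage checkpoint, rose by 0.40 ± 0.05 there (adjusted p = 1.17e-05) and by 0.24 ± 0.05 in CHIR minus DMSO (adjusted p = 0.00115), while Brca2, a recombination factor, was at -0.23 ± 0.04 in 2i minus PD03 (adjusted p = 7.21e-04).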

How the data were processed

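Total RNA of ES cells on 15 Affymetrix whole-transcript arrays in 5 groups, mapped by the sample titles, was analysed. The authors deposited 1 log2 value for each probe set and array, made with RMA per the submitters' processing notes, which name no version. RMA subtracts background, applies quantile normalization and summarises probes. Of 34760 probe sets, 21640 had 1 gene symbol in the platform annotation, 1321 had several and 11799 are unnamed here. The set with the highest mean stood for a gene (19937 genes), and 0 value columns were left unused. No filter on level was applied.

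Group means were estimated from all 15 arrays together in limma 3.58.1 (lmFit and eBayes, 10 residual and 5.09 prior degrees of freedom) in R 4.3.3, and tested on simulated data. Tests are two-sided. Comparisons were those of 2 groups named in the text and the interaction, (2i minus PD03) minus (CHIR minus DMSO). The members, lists and rules were chosen with earlier results of these data known, so no pattern here is independent support. Array values are given for the 12 genes with the largest called changes, the 6 widest spans among replication and among mitotic genes, and E2f1, Rb1, Rbl2, Wee1, Mki67 and Gmnn; Cdk2 was added after its values were seen. From other lists up to 4 called genes with the largest change in a comparison could be named. Alternatives were a replicate block, a minimum mean of 6, trended robust moderation, only the groups compared, arrays centred on their medians, the mean of a gene's probe sets, all probe sets tested, and each array left out; the other probe set of Pcna, E2f3 and Top2a was added after seeing the data. The labels give no batch.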

Additional observations from a re-analysis of the deposited data

Results flagged for a closer look

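The effect of 1 inhibitor differed with the presence of the other, by the limma interaction test, for 2 of 56 other mitotic genes, 1 of 13 checkpoint genes, 0 of 44 other replication genes, 0 of 15 other E2F and B-Myb complex genes and 0 of the 44 cell cycle genes. Of all genes 2.04% were called, so these counts are near the background. The interaction was -0.22 ± 0.05 for Sgo2a (adjusted p = 0.0381), whose difference was 0.23 in PD03 minus DMSO and 0.00209 in 2i minus CHIR. It was -0.19 ± 0.04 for Kif23, a motor of cytokinesis (adjusted p = 0.0346; 0.25 and 0.06), and -0.21 ± 0.05 for the helicase Blm (adjusted p = 0.0386; 0.18 and -0.02).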

How the results depend on the processing

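Of the 75 calls of a cell cycle gene in a comparison, 32 were kept under all 23 alternatives and 40 under the removal of any 1 array, and 0 changed direction. Counts below are of called replication genes (of 12) or mitotic genes (of 20), and the cause of a moved count was not tested. With arrays centred on their medians, mitotic counts were 2 in CHIR minus DMSO, 1 in PD03 minus DMSO, 5 in 2iLIF minus DMSO, 5 in 2i minus PD03 and 1 in 2iLIF minus 2i, and replication counts 0 in CHIR minus DMSO and 1 in PD03 minus DMSO. With trended robust moderation, replication counts were 3 in CHIR minus DMSO, 2 in PD03 minus DMSO, 2 in 2i minus DMSO, 1 in 2i minus PD03 and 2 in 2iLIF minus 2i, and mitotic counts 1 in 2i minus CHIR and 1 for the interaction. With only the groups compared, replication counts were 0 in CHIR minus DMSO, 1 in 2iLIF minus DMSO and 0 in 2iLIF minus 2i, and mitotic counts 7 in 2iLIF minus DMSO and 0 in 2iLIF minus 2i. With all probe sets tested, and also with the other probe set of Pcna, E2f3 and Top2a, replication counts were 0 in CHIR minus DMSO and 0 in 2iLIF minus 2i, and the mitotic count was 1 in 2iLIF minus 2i.

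Leaving out 1 array at a time, replication counts ranged from 0 to 1 for CHIR, for PD03 and for 2i against DMSO, for 2i minus PD03 and for 2iLIF minus 2i, and from 1 to 3 in 2iLIF minus DMSO. Mitotic counts ranged from 4 to 6 in CHIR minus DMSO, from 2 to 4 in PD03 minus DMSO, from 5 to 6 in 2i minus DMSO, from 8 to 11 in 2iLIF minus DMSO, from 7 to 13 in 2i minus PD03 and from 0 to 2 in 2iLIF minus 2i.

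Same-numbered arrays did not deviate together more often than others: deviations correlated over 0.1 in 10 of 30 same-numbered pairs and in 22 of 60 others. This count cannot show whether the arrays were paired when they were made. Correlations reached 0.341 in same-numbered pairs and 0.443 in the others, and the cause was not tested. With a replicate block the replication count in CHIR minus DMSO was 0 in place of 1, and no other count moved by over 1.5 times. With 3 arrays a group, differences near the standard error of 0.0509 could not be called.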
